A study of Mus musculus with 8 samples.

Results

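Mice with a C>T base change at Mir140, the gene of the cartilage microRNA miR-140, were compared with their own wild types by RNA sequencing of rib chondrocytes. The comparison takes the 4 libraries whose titles carry C>T, of 8 in the series, and runs across all 14359 genes that passed the filter on low counts. CT mutants carry the base change (2 libraries), and CT wild types are the matched group without it (2 libraries). The other 4 libraries belong to a separate line, with 2 CG mutants altered in the seed region of the 3p arm and 2 CG wild types. All 8 came from CD1 mice aged 10 days, whose rib cartilage was digested with collagenase II overnight before the cells were filtered and plated. Both mutations are presented in the design text as ways of overexpressing the 5p arm. Not given in the sources used here are the position of the base change, the zygosity and the number of animals behind a library.

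Like other microRNAs, miR-140 is cut from a hairpin into a 5p and a 3p arm, and an arm loaded into an Argonaute protein represses mRNAs whose 3′ UTR pairs with its seed, bases 2 to 8. The hairpin lies in an intron of Wwp2, a gene for a ubiquitin ligase, and the microRNA is among the most abundant of cartilage. Chondrocytes fill their matrix with type II collagen and aggrecan under the transcription factor SOX9 before they enlarge and mineralise. The 3p arm is shown because its seed defines the sites counted in 3′ UTRs further on. RefSeq places it at chr8:107551288-107551308 on the plus strand of GRCm38.p6, and capitals mark the seed.
mmu-miR-140-3p: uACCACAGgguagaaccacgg

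The libraries were deep and differed in their composition. Total counts ran from 27297539 to 28678641 in the 4 CT libraries and from 26536868 to 28678641 in all 8. Col2a1, which encodes type II collagen, ranked 1 by FPKM (a count scaled for transcript length and depth) in each CT library. Its level was 6968 and 6906 FPKM in CT mutants and 10637 and 8928 FPKM in CT wild types. Acan and Sox9 were also expressed, at 387 to 526 FPKM and 165 to 200 FPKM over the 4 libraries, so the labelled chondrocytes carried their defining transcripts. The Y-linked gene Ddx3y had 3512 and 30 counts in CT mutants and 3669 and 10 counts in CT wild types, so the libraries of a group came from different animals and the presence of Y transcripts was balanced between groups. In a principal component analysis of the CT libraries, CT wild type replicate 1 stood apart on the first component, which held 42.8% of the variance, at 39.4 against -5.92 and -22.8 for CT mutants and -10.7 for the other CT wild type. Some list medians and genes that rest on that library are given with and without it, and others only with all libraries. P-values reflect only how far these libraries spread, part of which may be technical.

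Wwp2, the host gene, stood at 206 and 321 CPM in CT mutants and 244 and 295 CPM in CT wild types, where CPM is the count scaled by the TMM-adjusted library size. The groups overlapped, and the log2 fold change was -0.03 ± 0.28 (SE), with an adjusted p of 0.998 in edgeR's quasi-likelihood test. Neither arm of miR-140 was measured in these libraries, and the mRNA of the host does not report the level of an arm.

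Across all genes, 1 passed the threshold of 0.05 on the edgeR adjusted p in the higher direction, which is 0.00696% of genes tested, and 0, or 0.0%, passed in the lower direction. At an unadjusted p under 0.05, 352 genes were on the higher side (2.45%) and 382 on the lower side (2.66%). In 2473 genes (17.2%) both CT mutant libraries were above both CT wild types, and in 2346 (16.3%) both were below. Log2 fold changes were above 0 for 7089 genes (49.4%) and below 0 for 7266 (50.6%), and their median was 0.00. DESeq2 called 18 genes on the same counts, 10 higher and 8 lower, among them Cwc22, Fam171b, Olfr1033, Tslp, Cyfip2, Htr2a, Rcn1 and Gm4737 on the higher side and Palld, Camp, Ptpra, Myo1d, Ltf and Ngp on the lower side, which are described below. The authors' deposited table, which lists 2655 genes, gives a q-value under 0.05 to 41 of them, 19 higher and 22 lower in mutants. Among the 41 are Eif3j2 (1.5e-116), Cwc22 (4.02e-18), Palld (7.37e-16), Fam171b (6.02e-11), Ltf (4.62e-08), Tslp (1.5e-06), Olfr1033 (0.000154) and Cyfip2 (0.00399). Of these genes only Eif3j2 passed the edgeR test. Thbs3, Cebpe and C4b are not among the 41, with q-values of 0.346, 0.316 and 0.736.

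**Figure D1:**
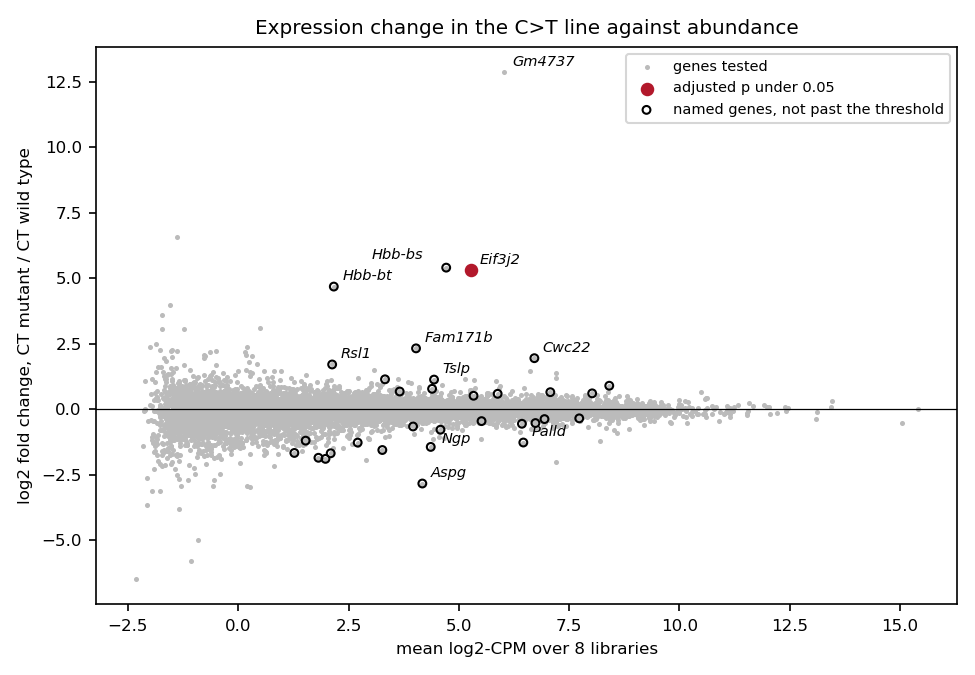
Log2 fold change of CT mutants over CT wild types (y axis) against the mean log2-CPM over 8 libraries (x axis) for 14359 genes. The filled point is Eif3j2, the 1 gene past the threshold, open points are other named genes, and the uppermost point, Gm4737, had no counts in either CT wild type, so its fitted fold is not a measured ratio.

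Eif3j2 rose in CT mutants. It encodes a copy of the j subunit of translation initiation factor eIF3, which takes part in start codon selection and in the release of ribosomes, and lies on chromosome 18, whereas its near-identical counterpart Eif3j1 lies on chromosome 2. Eif3j2 stood at 57.0 and 59.5 CPM in CT mutants and 1.55 and 1.39 CPM in CT wild types. The groups did not overlap, and the log2 fold change was 5.30 ± 0.39 at an edgeR adjusted p of 0.0129. Without CT mutant replicate 1 the adjusted p was 0.0506, and without CT wild type replicate 1 or 2 it was 0.559 and 0.343, while the log2 fold change stayed between 5.23 and 5.38 in these 3 fits. With limma on unfiltered FPKM the adjusted p was 0.0796.

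The counterpart ran the other way. Eif3j1 stood at 117.6 and 117.3 CPM in CT mutants and 182.9 and 181.1 CPM in CT wild types, giving a log2 fold change of -0.63 ± 1.12. That SE rests on the spread in all 8 libraries of the fit, not on the CT libraries alone. In CG wild types Eif3j1 was at 0.652 and 73.2 CPM. Summed, the pair was at 174.7 and 176.8 CPM in CT mutants and 184.5 and 182.5 CPM in CT wild types. Eif3j2 held 32.7% and 33.7% of the counts of the pair in CT mutants, against 0.847% and 0.758% in CT wild types. The share was close in both libraries of a group, and the sum differed far less between groups than either member. A counting tool can split the reads of such copies, so the level of each is uncertain. The share also varied in the CG line, at 0.702% and 0.907% in CG mutants and 99.5% and 44.6% in CG wild types.

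The clearest genes short of the threshold on the higher side were Cwc22, whose product recruits the exon junction complex to spliceosomes, and Fam171b, which encodes a membrane protein. Cwc22 stood at 239 and 143 CPM in CT mutants and 46.1 and 52.96 CPM in CT wild types, giving a log2 fold change of 1.95 ± 0.21 at an edgeR adjusted p of 0.124. Fam171b was at 30.7 and 14.7 CPM in CT mutants and 4.97 and 4.08 CPM in CT wild types, at 2.32 ± 0.33 and an adjusted p of 0.279. Both mutant libraries were well above both wild types for each gene, and replicate 1 was the higher mutant. The rule that named leading genes by p-value or fold took only genes with both mutants on the same side of both wild types. The cytokine gene Tslp, an epithelial alarmin, was at 32.9 and 30.8 CPM in CT mutants and 15.7 and 13.4 CPM in CT wild types, at 1.13 ± 0.20 and an adjusted p of 0.660. Fbln2, the gene of the elastic fibre protein fibulin 2, was at 26.7 and 22.4 CPM in CT mutants and 13.4 and 15.2 CPM in CT wild types, at 0.78 ± 0.16 and 0.797. For these genes the mutants were about level with each other.

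Other genes on the higher side had smaller differences. Cyfip2, a regulator of actin assembly, was at 215 and 201 CPM in CT mutants and 131 and 142 CPM in CT wild types. The olfactory receptor gene Olfr1033 was at 198 and 152 CPM in CT mutants and 83.9 and 104 CPM in CT wild types. The serotonin receptor gene Htr2a was at 5.85 and 5.35 CPM in CT mutants and 3.10 and 1.97 CPM in CT wild types. The groups did not overlap for any of these 3, as the naming rule required. Log2 fold changes were 0.61 ± 0.12, 0.90 ± 0.16 and 1.14 ± 0.22, with edgeR adjusted p-values of 0.681, 0.638 and 0.681. Suox, Lgmn, Rcn1 and Nt5dc3, which encode sulfite oxidase, the lysosomal protease legumain, the ER calcium-binding protein reticulocalbin 1 and a nucleotidase family member, had log2 fold changes from 0.51 to 0.68. The zinc finger repressor gene Rsl1 was at 7.03 and 7.04 CPM in CT mutants and 2.22 and 2.07 CPM in CT wild types, at 1.71 ± 0.49.

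Gm4737, which was chosen after its values were seen, was at 66.8 and 0.846 CPM in CT mutants and had 0 counts in both CT wild types. Its mutant libraries differed from each other more than the second differed from the wild types, and no fold is given.

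On the lower side, Palld led. It encodes palladin, a scaffold of actin stress fibres, and stood at 43.6 and 42.4 CPM in CT mutants and 101 and 107 CPM in CT wild types. The libraries of each group were almost level, the log2 fold change was -1.27 ± 0.17 and the edgeR adjusted p was 0.222. Palld passed in the fit of the 4 CT libraries alone. Ptpra, which encodes a receptor tyrosine phosphatase, was at 57.8 and 63.3 CPM in CT mutants and 86.7 and 91.2 CPM in CT wild types, at -0.56 ± 0.09 and an adjusted p of 0.385. The gene of the unconventional myosin Myo1d was at 70.1 and 73.1 CPM in CT mutants and 107 and 99.6 CPM in CT wild types, at -0.53 ± 0.10 and 0.681. Ptpra and Myo1d thus differed by less than Palld but by more than the spread within either group.

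The remaining genes of this side were of mixed roles. Thbs3, the gene of the cartilage matrix protein thrombospondin 3, was at 56.2 and 55.4 CPM in CT mutants and 83.4 and 69.5 CPM in CT wild types, at -0.45 ± 0.11. The early response gene Ier2 was at 97.5 and 100 CPM in CT mutants and 137 and 120 CPM in CT wild types, at -0.38 ± 0.09. The linker histone gene Hist1h1c was at 8.14 and 5.99 CPM in CT mutants and 13.3 and 11.0 CPM in CT wild types, at -0.78 ± 0.17. No mutant library reached the lower wild type in any of the 3, as the naming rule for small p-values required. Each had an edgeR adjusted p of 0.958. Adamts13, the gene of the von Willebrand factor protease, and Dph6, a gene of diphthamide synthesis, were at -1.20 ± 0.29 and -0.66 ± 0.16. The largest differences of this side were less even between libraries. Aspg, an asparaginase gene, was at 0.360 and 0.406 CPM in CT mutants and 0.564 and 4.93 CPM in CT wild types, so its log2 fold change of -2.84 came from 1 wild type library. Arg2, which encodes mitochondrial arginase, was more even, at 0.588 and 0.677 CPM in CT mutants and 1.83 and 2.24 CPM in CT wild types.

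**Figure D2:**
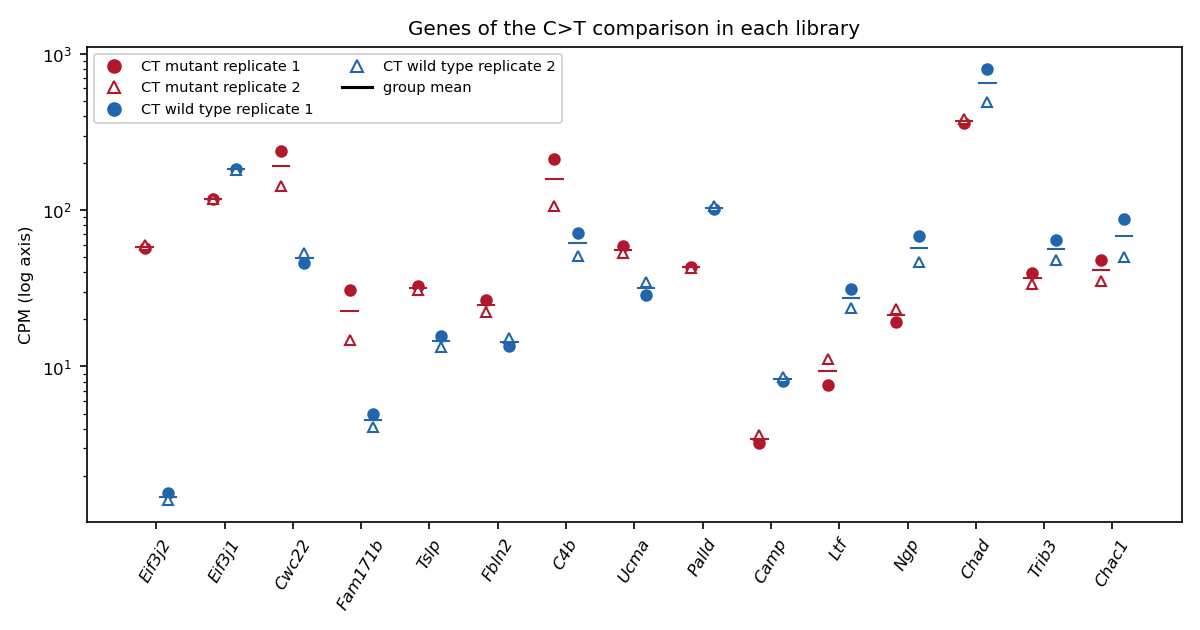
CPM on a log axis (y) of 15 genes (x) in each CT library. Circles are replicates 1, triangles are replicates 2, red is mutant, blue is wild type and bars are group means. Eif3j2 and Palld show level libraries within a group, while for Cwc22, C4b and Chad 1 library is well above its partner.

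No cartilage gene passed the edgeR test, while the authors' deposited table gives some of them a q-value under 0.05. Of the 6 fibril collagen genes, 1 had an unadjusted p under 0.05, on the lower side (2.66% of all genes). All 6 had log2 fold changes below 0 (50.6% of all genes), with a median of -0.24 where the median of all genes was 0.00. Col2a1 was at 31648 and 30879 CPM in CT mutants and 50163 and 40571 CPM in CT wild types, at -0.54 ± 0.27 with an adjusted p of 0.958. The authors' deposited table gives Col2a1 a log2 ratio of -0.54 with a q-value of 0.044. Both mutants were below both wild types, and the wild types were themselves far apart. Col9a1, the gene of a chain of the type IX collagen that coats the fibril, was at -0.53 ± 0.22, and Col11a2, whose type XI chain nucleates it, at -0.23 ± 0.21. Without CT wild type replicate 1, Col9a1 was at -0.26 and Col11a2 at -0.0033. The median of the 6 genes was -0.07 without replicate 1 of the CT wild types and -0.42 without replicate 2.

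Of 21 proteoglycan and small matrix protein genes, 1 was on the higher and 4 on the lower side at an unadjusted p under 0.05. The shares of all genes were 2.45% and 2.66%. In the list 0 passed, and the median was -0.05. Chad, the gene of the cell-binding matrix protein chondroadherin, was at 358 and 384 CPM in CT mutants and 804 and 490 CPM in CT wild types. The log2 fold change was -0.80 ± 0.22 at an edgeR adjusted p of 0.958, and CT wild type replicate 1 was the highest by far, without which the log2 fold change was -0.40. The authors' deposited table gives Chad a log2 ratio of -0.80 with a q-value of 0.013. Crispld1 and the chondrocyte membrane proteoglycan gene Snorc were also on the lower side, at -0.50 ± 0.14 and -0.53 ± 0.17. Comp and Ucma were chosen after their values were seen. Comp, the gene of an oligomeric matrix protein of cartilage, was at 845 and 803 CPM in CT mutants and 1132 and 997 CPM in CT wild types, at -0.37 ± 0.13. Ucma, which encodes a small secreted protein of chondrocytes, was on the other side, at 58.5 and 53.3 CPM in CT mutants and 28.6 and 34.7 CPM in CT wild types, at 0.82 ± 0.29. For Ucma the authors' deposited table has a q-value of 0.00092. Acan, the core protein gene of aggrecan, was at 0.14 ± 0.27 and its groups overlapped.

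Sox9 was at 0.10 ± 0.22, and the 9 genes of the SOX trio and other chondrocyte transcription factors had a median of -0.03, with 0 passing and 0 at an unadjusted p under 0.05. Hypertrophy and mineralization genes had 3 of 19 members above 0 (49.4% of all genes) and a median of -0.21. In that list 0 passed and 1 had an unadjusted p under 0.05, on the lower side (2.66% of all genes). That member was Ank, which exports the mineralization inhibitor pyrophosphate, at 506 and 614 CPM in CT mutants and 702 and 672 CPM in CT wild types, or -0.29 ± 0.12. Col10a1, the collagen of hypertrophic chondrocytes, was on the other side, at 4651 and 4569 CPM in CT mutants and 4158 and 3571 CPM in CT wild types, or 0.25 ± 0.18. The median of the list was -0.06 without CT wild type replicate 1. In the Indian hedgehog and PTHrP loop, which times the onset of hypertrophy, 0 of 11 genes passed and the median was -0.09. Hhip, which encodes a decoy receptor for hedgehog ligands, was at 1.05 and 1.25 CPM in CT mutants and 3.10 and 2.14 CPM in CT wild types, at -1.19 ± 0.29. Pthlh, the gene of the ligand PTHrP, was at 1.18 and 1.08 CPM in CT mutants and 2.75 and 1.33 CPM in CT wild types. Ihh itself was near the detection limit, at 0.0981 and 0.135 CPM in CT mutants and 0.282 and 0.136 CPM in CT wild types.

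Enzymes that build and cut the matrix had medians near 0. Matrix metalloproteinases had a median of -0.08 over 15 genes, ADAMTS proteases and TIMPs 0.02 over 14 and glycosaminoglycan synthesis genes 0.00 over 25, with 0 passing in each. The membrane collagenase gene Mmp14 was at 124 and 131 CPM in CT mutants and 92.5 and 88.9 CPM in CT wild types, at 0.49 ± 0.26. Chpf2, which extends chondroitin chains, was at 171 and 164 CPM in CT mutants and 204 and 203 CPM in CT wild types, at -0.28 ± 0.10. The mutants lay on 1 side of the wild types for both genes, on opposite sides of 0. Fibroblast collagens and matrix genes had a median of 0.06 over 17 genes, fibulins and elastic fibre genes 0.00 over 18 and contractile actin genes 0.01 over 19. Fbln2 belongs to the elastic fibre list and Palld to the contractile list. In the contractile list the LIM protein gene Csrp1 was at -0.60 ± 0.19 and the tropomyosin gene Tpm4 at 0.29 ± 0.11.

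Reported miR-140-5p targets numbered 18, of which 17 were tested and 0 passed. The list had 8 genes above 0, 9 below 0 and a median of -0.02. At an unadjusted p under 0.05 there was 1 gene, on the higher side (2.45% of all genes). That gene was Dnpep, which encodes an aspartyl aminopeptidase, at 18.1 and 18.4 CPM in CT mutants and 11.5 and 15.8 CPM in CT wild types, or 0.42 ± 0.17. On the lower side came Nfe2l2, the gene of the oxidative stress factor NRF2, at 104 and 102 CPM in CT mutants and 143 and 111 CPM in CT wild types, or -0.30 ± 0.13. Hdac4, which encodes a deacetylase that restrains hypertrophy, was at 30.7 and 29.1 CPM in CT mutants and 39.4 and 32.4 CPM in CT wild types, or -0.26 ± 0.11. The mutants were below both wild types for Nfe2l2 and Hdac4, and each had an edgeR adjusted p of 0.958. Without CT wild type replicate 1, Nfe2l2 was at -0.11 and Hdac4 at -0.12. The angiogenic factor gene Vegfa was at -0.42 ± 0.21, or -0.06 without CT wild type replicate 1, and its groups overlapped. The aggrecanase gene Adamts5 was at -0.34 ± 0.46 and the collagenase gene Mmp13 at -0.23 ± 0.39, also with overlapping groups. The kinase receptor gene Pdgfra, the collagen cross-linking gene Loxl3, the DNA methyltransferase gene Dnmt1, the chemokine gene Cxcl12, the small GTPase gene Rala, the BMP ligand gene Bmp2 and the other 5 lay between -0.15 and 0.31. Those 5 were Smad3, a mediator of TGF-beta signals, its receptor gene Tgfbr1, the transcription factor gene Sp1, the growth factor gene Fgf2 and the IGF-binding protein gene Igfbp5. The list had a median of -0.03 without replicate 1 of the CT wild types, -0.18 without replicate 2 and 0.03 without CT mutant replicate 1.

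The 3 reported 3p targets, Nrip1, Ncoa1 and Cd38, were at -0.08 ± 0.12, 0.06 ± 0.11 and 0.04 ± 0.34. They encode a nuclear receptor corepressor, a coactivator and an NAD-degrading surface enzyme, and the groups overlapped for all 3. Sites were also counted in 3′ UTRs, as the 7-base match CTGTGGT to the seed of the printed 3p arm. They were counted on the strand of the mRNA, in the longest annotated 3′ UTR of each gene. Sites of the opposite arm, which the design text presents as overexpressed, were not counted. Its sequence was not in the sources used here. Of 13846 tested genes with a 3′ UTR of at least 50 bases, 2668 (19.3%) had a match to the 3p seed. Their median log2 fold change was 0.01, against -0.01 for the 11178 genes without one. At an unadjusted p under 0.05, 3.19% of genes with a match were on the higher side and 1.76% on the lower side, against 2.30% and 2.74% of genes without one. Genes with a match had longer 3′ UTRs, at a median of 2372 bases against 983, and the part of UTR length in these shares was not tested. The 485 genes with 2 or more matches had a median of 0.01 and the 545 genes whose match runs to 8 bases a median of 0.03. With 2 or more matches, 2.89% were on the higher side and 2.47% on the lower side at an unadjusted p under 0.05. With the 8-base match these shares were 3.67% and 2.57%, so the smaller share on the lower side was not seen in either class. Genes of microRNA processing and the Argonaute proteins had a median of 0.02 over 13 tested members, and 0 passed.

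**Figure D3:**
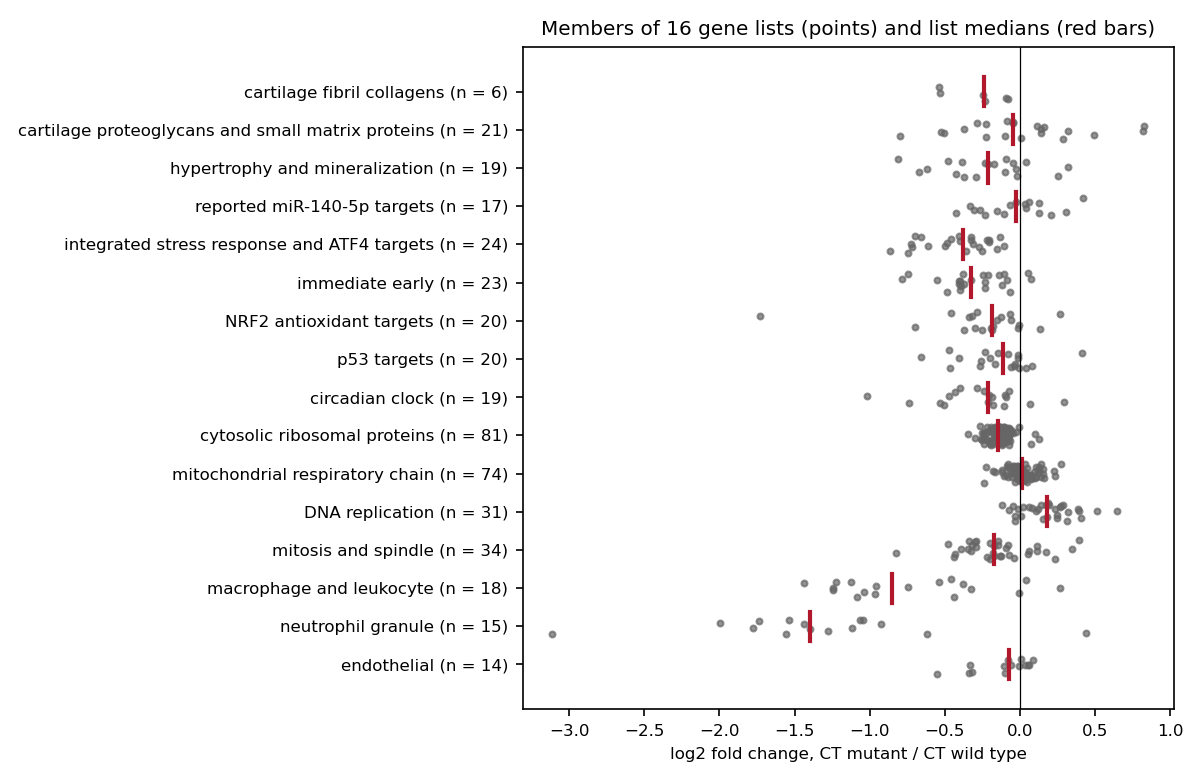
Log2 fold changes of CT mutants over CT wild types (x axis) for the members of 16 gene lists (rows). Points are genes and red bars are list medians. Most lists straddle 0, while all 24 integrated stress response genes and 14 of 15 neutrophil granule genes lie below it.

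Stress response genes were on the lower side together. The integrated stress response slows translation when amino acids or folding capacity run short and raises the transcription factor ATF4, whose targets make and import amino acids. Of 24 such genes, 0 passed the edgeR test, but all 24 had log2 fold changes below 0, where 50.6% of all genes did. In 16 of 24 both mutants were below both wild types (16.3% of all genes), and 9 had an unadjusted p under 0.05 (2.66% of all genes). The median was -0.38, with -0.43 between replicates 1 and -0.28 between replicates 2. It came to -0.17 when CT wild type replicate 1 was left out and to -0.53 when CT wild type replicate 2 was. CT wild type replicate 1 thus held the highest level for the leading genes, and the other wild type was above the mutants by less.

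Trib3, a pseudokinase gene induced by ATF4, was at 39.6 and 33.7 CPM in CT mutants and 64.1 and 48.0 CPM in CT wild types, giving a log2 fold change of -0.61 ± 0.16. Ddit3, which encodes the factor CHOP, was at 27.8 and 22.3 CPM in CT mutants and 51.6 and 32.3 CPM in CT wild types, at -0.74 ± 0.21. Chac1, which degrades glutathione, was at 47.8 and 35.1 CPM in CT mutants and 87.3 and 50.04 CPM in CT wild types, at -0.73 ± 0.25. In each the mutants lay below both wild types, and the edgeR adjusted p was 0.958. The other genes given here, Atf4, Asns, Nupr1 and Slc7a11, were chosen after their values were seen. Atf4 itself was at 599 and 566 CPM in CT mutants and 781 and 667 CPM in CT wild types, at -0.31 ± 0.11. Asns, for asparagine synthetase, was at 333 and 336 CPM in CT mutants and 409 and 362 CPM in CT wild types. The stress-induced chromatin protein gene Nupr1 was at 58.2 and 70.6 CPM in CT mutants and 85.9 and 84.2 CPM in CT wild types. The cystine transporter gene Slc7a11 was at 90.4 and 83.0 CPM in CT mutants and 174 and 107 CPM in CT wild types. For Asns and Nupr1 the mutants were below the lower wild type, as they were for Slc7a11 and Atf4. Without CT wild type replicate 1, Chac1 was at -0.27, Ddit3 at -0.37 and Trib3 at -0.39, and Slc7a11 was at -0.30 in place of -0.70.

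The promoters of 4 of these genes are shown because genes of the list lay on the same side together and these carry the letters of the composite element of C/EBP and ATF4, TGATGNAA, which was searched on both strands. Each is the 250 bases before the RefSeq start in GRCm38.p6, read in the direction of the gene, with matches in capitals. Asns lies at chr6:7693210-7693459 on the minus strand, Chac1 at chr2:119350992-119351241 on the plus strand, Nupr1 at chr7:126625471-126625720 on the minus strand and Slc7a11 at chr3:50443614-50443863 on the minus strand.
Asns: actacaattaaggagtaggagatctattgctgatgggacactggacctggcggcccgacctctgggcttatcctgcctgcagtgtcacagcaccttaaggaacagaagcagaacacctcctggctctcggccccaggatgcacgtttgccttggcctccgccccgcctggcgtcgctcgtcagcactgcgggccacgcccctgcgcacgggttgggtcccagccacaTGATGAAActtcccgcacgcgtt
Chac1: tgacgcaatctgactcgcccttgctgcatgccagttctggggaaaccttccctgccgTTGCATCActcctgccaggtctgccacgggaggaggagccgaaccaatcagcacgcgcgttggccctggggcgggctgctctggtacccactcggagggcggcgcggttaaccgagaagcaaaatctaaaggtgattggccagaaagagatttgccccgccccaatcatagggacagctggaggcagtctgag
Nupr1: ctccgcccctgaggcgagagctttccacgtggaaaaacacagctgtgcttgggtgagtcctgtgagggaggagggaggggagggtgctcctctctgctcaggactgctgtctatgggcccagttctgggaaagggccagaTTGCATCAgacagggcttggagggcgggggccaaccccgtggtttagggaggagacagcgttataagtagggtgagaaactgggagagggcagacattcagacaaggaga
Slc7a11: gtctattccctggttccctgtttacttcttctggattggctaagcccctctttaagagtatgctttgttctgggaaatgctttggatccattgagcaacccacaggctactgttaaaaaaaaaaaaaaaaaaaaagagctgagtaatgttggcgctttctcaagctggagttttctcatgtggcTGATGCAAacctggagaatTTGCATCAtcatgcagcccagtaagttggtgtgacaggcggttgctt
Over windows of 250 bases before to 50 after the start, 7 of the 22 genes of the list with a promoter sequence had a match (31.8%), against 332 of 11337 tested genes (2.93%) and 1304 of all 32851 promoters (3.97%). The other 3 with a match were Trib3, Fgf21 and Vldlr. A match describes these letters and is not a bound site. The list was made of genes known as ATF4 targets, so its larger share describes the list. It bears on no result of the C>T comparison, and a part of ATF4 was not tested.

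Other stress lists followed in part. Immediate early genes, which respond to growth factors and to cell dissociation within minutes, had 2 of 23 above 0 (49.4% of all genes) and a median of -0.32. On the lower side 4 had an unadjusted p under 0.05 (2.66% of all genes). Fos was at 29.6 and 31.4 CPM in CT mutants and 55.4 and 33.9 CPM in CT wild types, and the stress factor gene Atf3 at 26.2 and 16.2 CPM in CT mutants and 47.7 and 25.5 CPM in CT wild types. CT wild type replicate 1 was the highest library for both. Their log2 fold changes were -0.55 and -0.78, or -0.16 and -0.26 without that library, and the median of the list was then -0.05. NRF2 antioxidant targets had 2 of 20 above 0 (49.4% of all genes). Their median was -0.19, which stayed between -0.20 and -0.15 whichever CT library was left out. Ephx1, a detoxifying hydrolase gene, was at -0.30 ± 0.15, and Ftl1, the light chain gene of the iron store ferritin, at -0.29 ± 0.18. Targets of p53 had a median of -0.11 over 20 genes, with 2 on the lower side at an unadjusted p under 0.05 (2.66% of all genes). These were Sesn2 and Trp53inp1, at -0.66 ± 0.27 and -0.47 ± 0.20, or -0.16 and -0.14 without CT wild type replicate 1. Genes of ER folding and secretion had a median of -0.01 over 27, although Herpud1, which takes part in ER-associated degradation, was at 214 and 168 CPM in CT mutants and 401 and 240 CPM in CT wild types, at -0.75 ± 0.22, or -0.33 without CT wild type replicate 1. Heat shock genes had a median of -0.04 over 13. No gene of any of these lists passed the edgeR test.

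Ribosomal protein genes showed a small and even difference. Of 81, 78 were below 0 (50.6% of all genes) and 45 had both mutants below both wild types (16.3% of all genes). At an unadjusted p under 0.05 there were 5 (2.66% of all genes on the lower side), and 0 passed. The median was -0.14, and no member lay beyond -0.35. Rps27 was at 197 and 193 CPM in CT mutants and 254 and 242 CPM in CT wild types, at -0.35 ± 0.08 with an edgeR adjusted p of 0.958, and Fau was at -0.26 ± 0.09. Here CT wild type replicate 2 was the library that mattered, since the median came to -0.06 without it, while it came to -0.22 without CT wild type replicate 1. Mitochondrial respiratory chain genes, another large set, had a median of 0.01 over 74.

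Genes of DNA replication were mostly on the higher side, with 25 of 31 above 0 (49.4% of all genes) and 12 with both mutants above both wild types (17.2% of all genes). The median was 0.18, and 0 passed. At an unadjusted p under 0.05 there was 1, a share near the 2.45% of all genes on the higher side. Ccne1, the gene of the S phase cyclin E1, was at 8.24 and 7.41 CPM in CT mutants and 3.95 and 6.05 CPM in CT wild types, at 0.64 ± 0.24. Rfc3, of the clamp loader, and Orc1, of the origin recognition complex, were at 0.32 ± 0.14 and 0.41 ± 0.18. The median came to 0.08 without replicate 1 of the CT wild types and to 0.29 without replicate 2. Genes of mitosis and the spindle were not on that side, with 8 of 34 above 0 (49.4% of all genes). In 11 both mutants were below both wild types (16.3% of all genes), and in 2 both were above (17.2% of all genes). The median was -0.17, which was -0.03 without CT wild type replicate 1. The proliferation marker Mki67 was at 8.92 and 11.0 CPM in CT mutants and 15.9 and 11.8 CPM in CT wild types, at -0.48 ± 0.22. Without CT wild type replicate 1 it was at -0.25.

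Blood cell transcripts lay mostly below 0 in CT mutants over CT wild types, most of all against CT wild type replicate 1, and no gene of these lists passed the edgeR test. In bulk RNA, fewer cells of a type and less RNA per cell cannot be told apart. Of 15 tested neutrophil granule genes, 0 passed, 14 were below 0 (50.6% of all genes) and 12 had both mutants below both wild types (16.3% of all genes). At an unadjusted p under 0.05 there were 9 (2.66% of all genes on the lower side), and the median was -1.40. Camp, the gene of the antimicrobial peptide cathelicidin, was at 3.24 and 3.65 CPM in CT mutants and 8.11 and 8.57 CPM in CT wild types, giving a log2 fold change of -1.27 ± 0.18 at an edgeR adjusted p of 0.272. Ltf, for lactoferrin, was at 7.58 and 11.1 CPM in CT mutants and 31.3 and 23.7 CPM in CT wild types, at -1.56 ± 0.30 and 0.681. Cebpe, the transcription factor gene of granule formation, was at 0.523 and 0.575 CPM in CT mutants and 2.01 and 1.77 CPM in CT wild types, at -1.77 ± 0.36 and 0.797. Both mutants were below both wild types for each of these, and the wild types were close to each other. The granule protein gene Ngp was at 19.1 and 23.3 CPM in CT mutants and 68.4 and 46.7 CPM in CT wild types, at -1.44 ± 0.33, and the authors' deposited table gives it a log2 ratio of -1.44 with a q-value of 2.59e-09. The median of the list was -0.97 without replicate 1 of the CT wild types and -1.69 without replicate 2. The summed level of the list was 294.1 and 271.1 CPM in CT mutants and 443.0 and 271.8 CPM in CT wild types. Of this sum Lcn2, a granule gene that other cells also express and that was chosen after its values were seen, held 209 and 165 CPM in CT mutants and 175 and 101 CPM in CT wild types.

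Macrophage and leukocyte markers had 16 of 18 tested genes below 0, where 50.6% of all genes were, and 13 with both mutants below both wild types (16.3% of all genes). With an unadjusted p under 0.05 there were 5 (2.66% of all genes on the lower side), 0 passed and the median was -0.85. Ptprc, the common leukocyte antigen CD45, was at 2.55 and 3.72 CPM in CT mutants and 9.98 and 4.86 CPM in CT wild types, at -1.24 ± 0.44, or -0.63 without CT wild type replicate 1. The signalling adaptor gene Fcer1g and the lysosomal membrane gene Laptm5 were at -0.97 ± 0.37 and -1.12 ± 0.45. Cd68, a macrophage lysosome gene chosen after its values were seen, was nearly even, at 20.2 and 20.3 CPM in CT mutants and 20.7 and 20.0 CPM in CT wild types. The median of the list was -0.53 without replicate 1 of the CT wild types and -1.14 without replicate 2, and its summed level overlapped, at 394.3 and 372.6 CPM in CT mutants and 430.4 and 363.4 CPM in CT wild types. Only 3 of 15 lymphocyte genes were tested, and 0 passed. Ctsk, the bone-resorbing protease gene among osteoclast markers, was at 27.5 and 30.1 CPM in CT mutants and 53.4 and 32.1 CPM in CT wild types. Without replicate 1 of the CT wild types, Ctsk was at -0.15 in place of -0.57 and the median of the 7 tested osteoclast genes at 0.02 in place of -0.51. The part of blood cell content in the results on other genes was not tested.

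Erythroid transcripts differed widely between libraries, and none passed the edgeR test. The authors' deposited table gives the alpha-globin gene Hba-a1 a log2 ratio of -0.93 with a q-value of 0.000233. Beta-globin genes summed to 416.0 and 620.1 CPM in CT mutants and 1175 and 710.7 CPM in CT wild types, and alpha-globin genes to 570.3 and 767.7 CPM in CT mutants and 1482 and 846.4 CPM in CT wild types. Alas2, the haem synthesis enzyme of red cells, was at 11.9 and 16.04 CPM in CT mutants and 30.2 and 18.1 CPM in CT wild types. CT wild type replicate 1 was the highest library in all 3. Without it Alas2 was at -0.37 in place of -0.79, and the median of the 11 tested erythroid genes at 0.14 in place of -0.79. The mouse beta-globin cluster exists in alternative haplotypes, with Hbb-bs and Hbb-bt in one and Hbb-b1 and Hbb-b2 in another. Hbb-bs and Hbb-bt together held 48.9% and 2.58% of beta-globin counts in CT mutants, against 0.450% and 0.0526% in CT wild types. Hbb-bs was at 174 and 14.5 CPM in CT mutants and 4.16 and 0.306 CPM in CT wild types, at 5.41 ± 1.33 with an edgeR adjusted p of 0.958. The mutant libraries were far apart, and such copies share reads, so their levels are uncertain.

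No marker of other cell types passed the edgeR test. Endothelial genes had a median of -0.07 over 14 genes and a sum of 127.9 and 161.0 CPM in CT mutants and 110.8 and 185.7 CPM in CT wild types. Tendon and ligament genes had a median of 0.05 over 8, Schwann cell and nerve genes 0.06 over 8 and skeletal muscle genes 0.24 over 10. Osteoblast genes had a median of -0.36 over 8, with sums of 22.3 and 21.6 CPM in CT mutants and 24.0 and 27.6 CPM in CT wild types. Adipocyte genes and mast cell and basophil genes had 3 tested members each, with medians of -0.15 and 0.23. Col1a1, the main collagen of bone and fibroblasts, was at -0.23 ± 0.42 with overlapping groups.

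**Figure D4:**
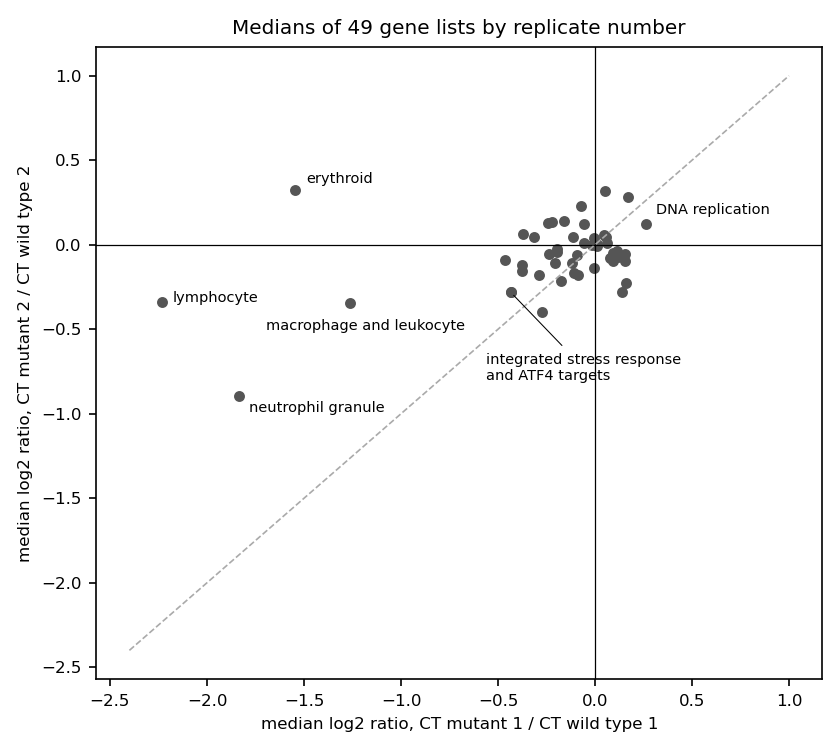
Median log2 ratio of 49 gene lists between replicates 1 (x axis, CT mutant 1 over CT wild type 1) and between replicates 2 (y axis), each point a list. The lymphocyte, neutrophil granule, macrophage and leukocyte, and erythroid lists lie far to the left, beyond the dashed line of equal ratios. The mast cell and basophil list does not, at 0.05 and 0.32. The erythroid list lies on opposite sides of 0, at -1.54 and 0.33.

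The libraries of a group did not move as one across genes. The log2 ratios between replicates 1 and between replicates 2 had the same sign for 56.6% of genes, with a Pearson r of 0.20 across 14359 genes, which are not independent replicates and share the libraries' own depth and composition. For lists the ratios between replicates 1 were mostly larger, as with macrophage and leukocyte markers at -1.26 and -0.35 and the mitosis list at -0.37 and 0.06. Ribosomal proteins ran the other way, at -0.09 and -0.18. In both CT groups replicate 1 was the library with Y transcripts, so a contrast of the replicate numbers is also one of libraries with and without them.

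Signalling genes showed single members rather than whole pathways. Bmp3, an antagonist within the BMP family, was at 35.0 and 30.3 CPM in CT mutants and 18.7 and 17.8 CPM in CT wild types, at 0.84 ± 0.24 with an edgeR adjusted p of 0.958. Gdf5, the joint-forming ligand gene, was at 20.0 and 14.9 CPM in CT mutants and 24.97 and 22.98 CPM in CT wild types, at -0.46 ± 0.15. The 29 BMP and GDF genes had a median of 0.06, and the 22 TGF-beta genes 0.04. Among 16 IGF genes with a median of -0.12, Igfbp4, whose product holds IGF ligands, was at 209 and 200 CPM in CT mutants and 119 and 166 CPM in CT wild types, at 0.52 ± 0.16. Pappa, the protease that cleaves that binding protein, was on the other side, at 50.3 and 65.8 CPM in CT mutants and 82.6 and 76.3 CPM in CT wild types, at -0.45 ± 0.14. The groups did not overlap for either.

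WNT genes had a median of -0.08 over 32, with the R-spondin receptor gene Lgr6 at 24.1 and 23.5 CPM in CT mutants and 15.4 and 19.3 CPM in CT wild types and the ligand gene Wnt11 at 18.3 and 17.8 CPM in CT mutants and 30.2 and 21.3 CPM in CT wild types. The decoy TRAIL receptor genes Tnfrsf23 and Tnfrsf22 were at 0.55 ± 0.13 and 0.50 ± 0.12 in a list of 18 with a median of -0.11. FGF genes had a median of -0.05 over 19, and Fgf1 was at 0.752 and 0.711 CPM in CT mutants and 0.247 and 0.272 CPM in CT wild types. Both Fgf1 libraries of mutants exceeded both of the wild types at a low level. Of the clock genes, 2 of 19 were above 0 (49.4% of all genes) and the median was -0.21, which was -0.07 without CT wild type replicate 1. Dbp, a clock output factor gene, was at 2.81 and 2.27 CPM in CT mutants and 7.41 and 2.89 CPM in CT wild types, at -1.02, or -0.19 without that library. Glycolysis and hypoxia genes had a median of -0.08 over 27 and cholesterol synthesis genes 0.01 over 24. No member of these lists passed the edgeR test.

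Inflammatory genes were uneven as well. C4b, a gene of the classical complement cascade, was at 212 and 106 CPM in CT mutants and 71.7 and 50.8 CPM in CT wild types, at 1.38 ± 0.33 with an edgeR adjusted p of 0.958, in a list of 14 whose median was -0.27. C5ar1, a leukocyte receptor gene of that list, was at -1.06 ± 0.59. Acute phase, IL-6 and prostaglandin genes had a median of 0.13 over 22, led by Tslp and by the cyclooxygenase gene Ptgs1, at 71.4 and 74.2 CPM in CT mutants and 59.9 and 61.6 CPM in CT wild types. Steap4, a metalloreductase gene, lay on the other side at -0.76 ± 0.25, or -0.42 without CT wild type replicate 1. Chemokine genes had a median of -0.05 over 17 and interferon-stimulated genes 0.01 over 17, with 0 passing in each.

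Several of the leading genes are on chromosome 2. At an unadjusted p under 0.01, 18 of the 1138 tested genes of that chromosome were found (1.58%), against 133 of all genes (0.926%), and Cwc22, Fam171b and Olfr1033 were among them. Chromosomes 14 and 9 had 1.375% and 1.22% at that limit. At an unadjusted p under 0.05, chromosomes 13 and 7 had larger shares, at 7.34% and 6.44%, than chromosome 2, at 6.33%. They are not next to each other, as 11 tested genes lie between Cwc22 and Fam171b and 20 between Fam171b and Olfr1033 in the gene order of RefSeq. The nearest tested neighbours of Cwc22 were at -0.15 ± 0.19 (Zfp385b, a zinc finger gene) and 0.08 ± 0.10 (Ube2e3, of the ubiquitin pathway). Next to Fam171b, the integrin gene Itgav was at 377 and 337 CPM in CT mutants and 270 and 258 CPM in CT wild types, at 0.44 ± 0.11, and on its other side the peptide receptor gene Calcrl was at -0.03 ± 0.37. The neighbours of Olfr1033 were at -0.14 ± 0.58 (Aplnr, the apelin receptor gene) and -0.32 ± 0.14 (Ptprj, a phosphatase gene). Neighbours were chosen by position after these values were seen. Palld lies on chromosome 8, as does Wwp2.

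The effect of the C>T change was set against that of the 3p seed mutation in the CG line. Of 14359 genes, 3 (0.0209%) differed in their mutant effect between the lines by the edgeR test. For Eif3j2, Cwc22 and Palld the effects had opposite signs in the lines, and the differences were 11.62, 3.66 and -2.52 on the log2 scale, with adjusted p-values of 0.00053, 0.0148 and 0.0239. The CG effects were -6.32 for Eif3j2, -1.71 for Cwc22 and 1.24 for Palld. For the difference of Cwc22 the adjusted p was 0.113 without replicate 1 of the CT wild types and 0.126 without replicate 2. For Palld it was from 0.113 to 0.177 when any CT library was left out. Fbln2 and C4b were on the higher side in both lines, at 0.78 ± 0.16 and 1.38 ± 0.33 in the CT line and 1.39 ± 0.16 and 1.43 ± 0.33 in the CG line. The stress response list had a median of -0.38 in the CT line and -0.06 in the CG line, and the reported 5p targets -0.02 and -0.24. For these lists the difference between the lines was not tested.

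**Figure D5:**
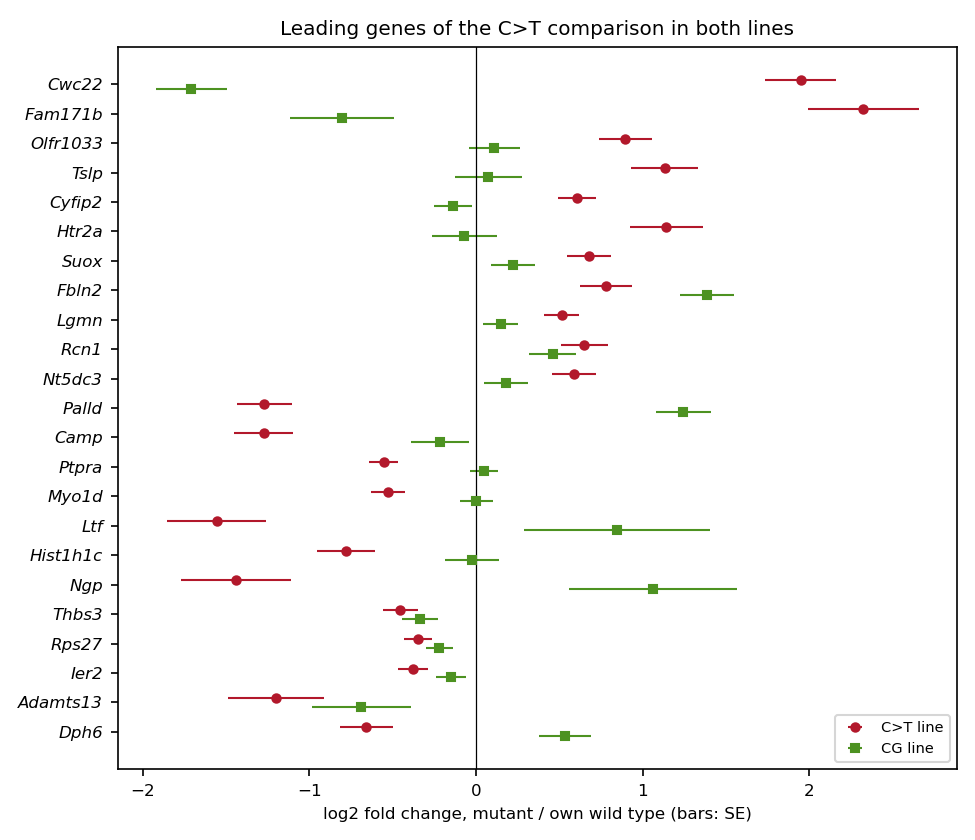
Log2 fold change of mutants over their own wild types (x axis, bars are SE) for 23 leading genes of the C>T comparison (rows), in the CT line (red circles) and the CG line (green squares). Cwc22 and Palld lie on opposite sides of 0 in the lines, Fbln2 and Thbs3 on the same side.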

How the data were processed

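Per the labels, total RNA was extracted with TRIzol, and per the design text it was sequenced by DNBSEQ. Per the submitters' processing notes, HISAT2 2.0.4 and the mm9 build were used. Not given in the sources used here are the read counter, its annotation and the tool behind the deposited q-values. The authors' deposited table gives, per the file headers, an estimated count and an FPKM value for each of 18501 genes and 8 libraries. The estimated counts, not whole for 2282 to 2518 genes a library, were rounded. For 2655 genes the authors also deposited log2 ratios and q-values of group comparisons. Date-like symbols of 24 genes were restored from Entrez IDs, of which 18381 were found in RefSeq GRCm38.p6.

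All 8 libraries entered an edgeR 4.0.16 quasi-likelihood fit in R 4.3.3, with a mean for each of the 4 groups, TMM scaling, edgeR's default filter on low counts, 4 residual degrees of freedom and Benjamini-Hochberg adjustment over 14359 genes. Each SE is the size of the log2 fold change over the root of the F statistic. Library 1 and library 2 of a group differed by more than sampling noise. Alternatives used DESeq2 1.42.0, limma 3.58.1 on log2 FPKM after addition of 1 or 0.1, other scaling, filters and samples. The fit was tested on simulated data.

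The comparison and the 49 gene lists were chosen with earlier results of these data known, so no list is independent evidence. Lists are described by counts and medians beside those of all genes. Named genes had a mean log2-CPM not under 1 and both mutants on the same side of both wild types, and were the 12 smallest p-values and the 6 largest folds in each direction. Added to these were up to 3 genes a list by p-value, reported miR-140 targets, and the host gene Wwp2, Mki67, Sox9, Acan and the collagen genes Col1a1, Col2a1 and Col10a1. Genes past the threshold were always named. Some genes that this rule picks are not reported here. Sequences came from RefSeq GRCm38.p6 and 3′ UTRs from GENCODE M21. Coordinates of expression features are not given, since the counts rest on mm9.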

Additional observations from a re-analysis of the deposited data

Results flagged for a closer look

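The 3 genes given here were marked because the effect of the C>T change differed from that of the 3p seed mutation by the edgeR test of the difference itself. The CT effect minus the CG effect was 11.62 for Eif3j2, 3.66 for Cwc22 and -2.52 for Palld on the log2 scale. Eif3j2, which shares reads with Eif3j1, averaged 58.3 and 1.47 CPM in CT mutants and CT wild types. In CG mutants and CG wild types it averaged 1.17 and 93.8 CPM. Cwc22 was at 191 and 49.5 CPM in CT mutants and CT wild types and at 41.6 and 136 CPM in CG mutants and CG wild types. Palld was at 43.0 and 104 CPM in CT mutants and CT wild types and at 144 and 60.9 CPM in CG mutants and CG wild types. The wild types of the lines thus differed from each other for all 3 genes, and the part of any difference between the stocks in these results was not tested.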

How the results depend on the processing

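In the CT line 1 gene passed in the reported fit, and 1 also passed with RLE factors, with a term for Ddx3y and with FPKM plus 1 or 0.1. The count was 2 without a filter on low counts, 3 with the CT libraries alone and 18 by DESeq2. With unfiltered FPKM 2 genes passed and Eif3j2 did not, at a limma adjusted p of 0.0796. With the replicate number as a block it was 4, of which 3 besides Eif3j2 were Gm4737, Hbb-bs and Hbb-bt. Leaving out 1 library gave 0 to 4 genes, with 0 without CT mutant replicate 1 or CT wild type replicate 1. For the difference between the lines, 3 genes passed in the reported fit, 3 with RLE factors or a term for Ddx3y, 5 without a filter, 6 with the replicate block and 38 by DESeq2. Leaving out 1 library gave 1 to 97 genes, the most without CG mutant replicate 2. Labels do not say what a replicate number marks, and in the CT line it coincides with the presence of Y transcripts, so the block cannot be told apart from that contrast there. Deviations of the replicates 1 from their group means had a correlation of 0.24 between CT mutants and CT wild types, and with 2 pairs the pairing was not established.

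Directions of genes near 0 turned when a library was left out, and the cause was not tested. Ranges over the left-out library were -0.20 to 0.56 for Bmp2, -0.11 to 0.17 for Cd38, -0.031 to 0.017 for Cd68, -0.59 to 0.059 for Col1a1, -0.051 to 0.78 for Cxcl12, -0.093 to 0.24 for Fgf2, -0.13 to 0.23 for Loxl3, -0.60 to 0.21 for Mmp13, -0.03 to 0.16 for Ncoa1, -0.25 to 0.11 for Nrip1, -0.13 to 0.079 for Pdgfra, -0.34 to 0.013 for Smad3, -0.032 to 0.22 for Sox9, -0.19 to 0.081 for Sp1, -0.085 to 0.16 for Tgfbr1, -0.45 to 0.055 for Vldlr, -0.39 to 0.25 for Wwp2 and -0.34 to 0.021 for Zfp385b. With FPKM plus 1, FPKM plus 0.1 and unfiltered FPKM, Cd68 was at 0.0285, 0.0299 and 0.0285 and Pdgfra at 0.0129, 0.0133 and 0.0129. Of 784 list medians under another setting, 143 moved by more than the standard deviation of the list median between the CT mutant libraries. That measure leaves out the spread between the CT wild types.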
